A study of Mus musculus with 8 samples.

Results

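Ascl2, the E proteins Tcf4 and Tcf12, and the Id factors Id1, Id2, Id3 and Id4 were examined on every array of a study of mouse small-intestinal organoids. These 7 genes were chosen by name as a transcription factor, its partners and its inhibitors, and every non-control probe that the array's own annotation gives to one of them was taken. These 7 of the 19336 genes measured had 17 of the array's 41174 probes. The filter on dim probes, which asks for signal over background on 2 or more of the 8 arrays, kept 27617 probes, among them all 17.

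Ascl2 is a basic helix-loop-helix (bHLH) transcription factor of the Wnt-driven stem cells at the base of intestinal crypts. Such tissue-restricted bHLH factors bind E-box motifs (CANNTG) as dimers with the broadly expressed E proteins, which are encoded by Tcf3 (E2A), Tcf4 (E2-2) and Tcf12 (HEB). Tcf4 is a different gene from Tcf7l2, the Wnt effector that is often called TCF4 as well. The Id proteins keep the dimerising helix-loop-helix but lack the basic region that touches DNA, so they hold E proteins in pairs that cannot bind an E-box, and Id1, Id2 and Id3 are known as targets of bone morphogenetic protein (BMP) signalling.

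Each of the 8 two-colour Agilent arrays carried RNA of 1 organoid culture, here called its own RNA, beside RNA of a control culture, and every culture, controls included, was pulsed with 4OH-tamoxifen, the ligand of CreERT2, for 16 h. Experiment 1 held 2 arrays of organoids transduced with a CMV-driven Ascl2 against VillinCreERT2 organoids, replicate 2 having the opposite dye orientation, and RNA was taken after 24 h. Experiment 2 held 1 array each of Ascl2-overexpressing, Tcf7l2null and Tcf7l2null/Ascl2-overexpressing organoids, all against the same dsGFP-transduced control, and 1 array with dsGFP RNA in both colours. Experiment 3 held 1 array of Ascl2null organoids against VillinCreERT2 organoids and 1 array with control RNA in both colours, whose genotype label (VillinCreERT2) was used although its description names Ascl2loxp/loxp organoids. VillinCreERT2 is a tamoxifen-inducible Cre under an epithelial promoter. Each experiment lay on a slide of its own, so experiment and slide cannot be told apart, and the experiment 2 comparisons share their control RNA. Whether both replicates of experiment 1 are separate cultures is not stated in the labels, and the p-values therefore measure how much these arrays vary, possibly for technical reasons alone.

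No spot was saturated, and between 50.1% and 67.4% of spots were well above background in a channel. Markers of crypt stem cells (7 of 7), enterocytes (7 of 8), goblet cells (5 of 5) and enteroendocrine cells (6 of 6 kept) were above background on all arrays, against 1 of 4 kept mesenchymal, 1 of 2 kept endothelial and 2 of 4 immune markers. The brightest Tcf7l2 probe was -0.34 on the Tcf7l2null array and 0.18 on the Tcf7l2null/Ascl2 array, beside 0.37 and -0.34 on the 2 self-self arrays. The sources used here do not state the deleted part of Tcf7l2 or Ascl2, or the part of Ascl2 in the construct. The probes thus cannot test the labels, by which the conditions are named throughout.

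The 3 sequences shown are the array's own 60-base probes for the genes on which the results turn most, each read along the mRNA. The Ascl2 probe is the only measure of Ascl2 here (mm9 chr7:150154439-150154498, minus strand), the Id2 probe crosses a splice junction and ends in the stop codon, printed in capitals (TAA; mm9 chr12:25780183-25780530, minus strand), and the Id3 probe also crosses a junction (mm9 chr4:135700075-135700249, plus strand).
Ascl2 A_51_P469147: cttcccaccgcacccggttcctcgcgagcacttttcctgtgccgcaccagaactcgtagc
Id2 A_51_P219074: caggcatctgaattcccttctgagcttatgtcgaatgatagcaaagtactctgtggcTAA
Id3 A_51_P380178: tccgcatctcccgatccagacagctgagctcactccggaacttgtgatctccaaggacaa
The Id2 probe spans 348 bases of genome and the Id3 probe 175, so both read spliced RNA. The exon and untranslated parts of the remaining probes were not analysed here.

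Of the 17 probes, 10 were well above background in all 16 channels: the probes of Ascl2 and Id3, both of Id1, and 2 each of Id2, Tcf4 and Tcf12. Both Id4 probes, the third Id2 and Tcf4 probes and 3 of the 5 Tcf12 probes were dim, and normexp correction draws the ratios of dim probes towards 0. All values below are log2 ratios of own RNA over control before the dye term, unless an effect of the limma model is named. In whole organoids, fewer cells of a type and less RNA per cell cannot be told apart.

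**Figure D1:**
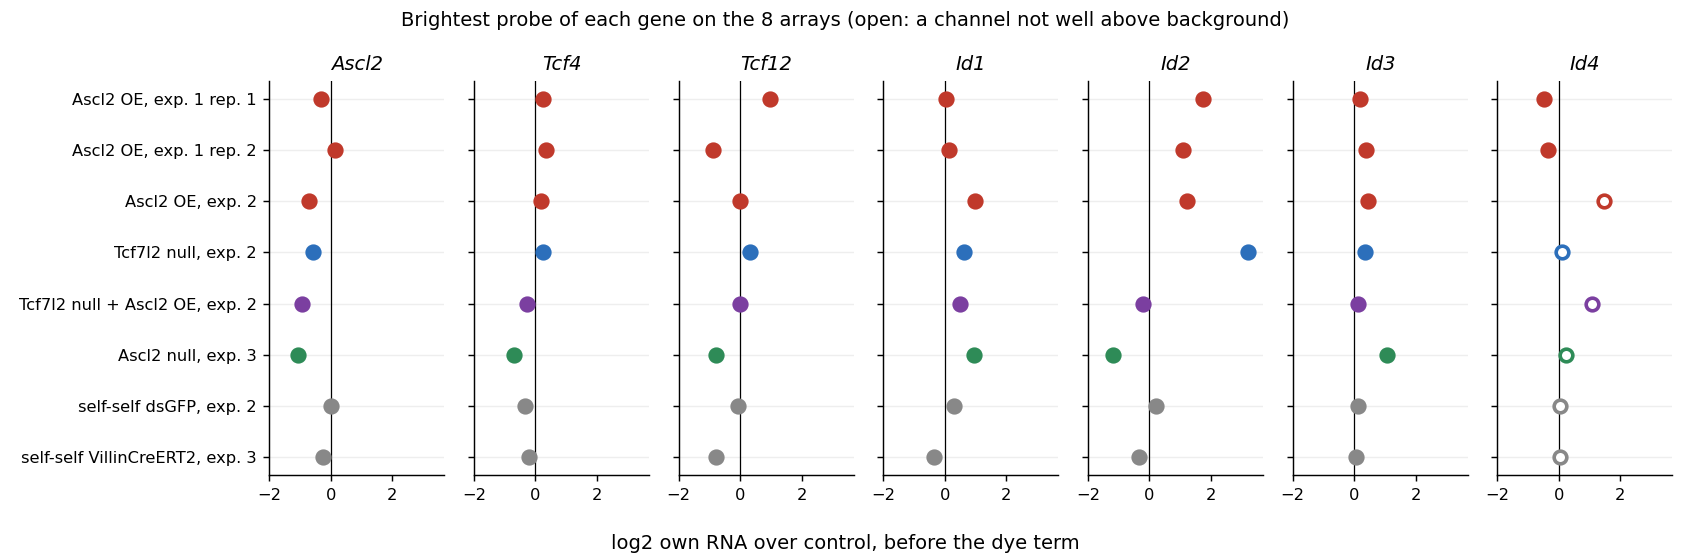
Log2 ratio of own RNA over control (x axis, before the dye term) of the brightest probe of each of the 7 genes, 1 panel per gene and 1 row per array; OE is overexpression, and an open circle has a channel that was not well above background. Id2 spreads from -1.19 on the Ascl2null array to 3.20 on the Tcf7l2null array, whereas Ascl2 lies between -1.07 and 0.12.

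The only Ascl2 probe was not raised on the arrays labelled as overexpressing Ascl2. Whether the construct holds the probed part is not known, so the probe cannot tell whether overexpression took place. The probe was -0.31 and 0.12 on replicates 1 and 2 of experiment 1, -0.72 on the overexpression array of experiment 2 and -0.93 on the Tcf7l2null/Ascl2 array. It was -0.57 on the Tcf7l2null array and -1.07 on the Ascl2null array, beside 0.01 and -0.26 on the dsGFP and VillinCreERT2 self-self arrays. The Ascl2null array, the lowest, was 2.09-fold lower than its control, and 1.78-fold lower after the dye term. All 3 non-control RNAs of experiment 2 lay below both self-self arrays, while the experiment 1 pair lay on both sides of 0. The shared overexpression effect was -0.23 ± 0.12 (SE, n = 3 arrays; limma, adjusted p = 0.565). The pair changed sides with median centring in place of loess, to 0.43 and -0.31, and kept them with the scanner's own log ratio, at -0.20 and 0.12.

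The level of Ascl2 in control RNA differed between the experiments. On the log2 scale of normalised channel intensity, the control channels had 9.03 and 9.25 in experiment 1, 8.20 to 8.66 in the 5 channels of experiment 2 and 9.74 to 10.0 in the 3 channels of experiment 3, and these ranges do not overlap. Own RNA of the Ascl2null array had 8.77, above every dsGFP control channel, and the own RNA of the 3 other experiment 2 conditions had 7.63 to 7.74. A low ratio in experiment 3 and one in experiment 2 therefore start from different control levels, and slide and control genotype cannot be told apart in them.

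The E protein Tcf4 (chromosome 18) had small positive ratios with Ascl2 overexpression that did not pass the test. Its brightest probe, A_51_P265137, was 0.23 and 0.33 in experiment 1 and 0.18 in experiment 2, against -0.34 and -0.22 on the self-self arrays. The Tcf7l2null array gave 0.26, the Tcf7l2null/Ascl2 array -0.27 and the Ascl2null array -0.71, the lowest. The shared effect was 0.30 ± 0.10 (SE, n = 3; limma, adjusted p = 0.326). The second bright probe, A_52_P424847, had 0.39, 0.10 and -0.09 on the overexpression arrays and -0.56 on the Ascl2null array, beside -0.40 and -0.28 on the self-self arrays. In experiment 2 the 2 probes thus differed in sign before the dye term, but each lay above both of its self-self values. After the dye term their experiment 2 effects were 0.34 and 0.01. The Ascl2null array minus the VillinCreERT2 self-self array gave -0.48 and -0.28 with these 2 probes.

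Tcf12, the E protein HEB, had opposite signs on the dye-swapped pair. Its brightest probe, A_52_P20048, was 0.97 on replicate 1 and -0.88 on the dye-swapped replicate 2 of experiment 1, and 0.01 in experiment 2. It was -0.80 on the VillinCreERT2 self-self array and -0.79 on the Ascl2null array of the same slide, a difference of 0.00. The authors' deposited table holds the same sign on both replicates of experiment 1 for this probe, 1.12 and 0.45. The second bright probe, A_51_P310135, gave 0.25 and -0.31 in experiment 1, -0.68 on that self-self array and -0.75 on the Ascl2null array. The shared effects of the 5 Tcf12 probes ran from -0.16 to 0.01, with limma adjusted p from 0.654 to 0.992. Tcf3, the remaining E protein gene, lay between -0.71 (Ascl2null) and 0.10 and had -0.52 on the VillinCreERT2 self-self array (shared effect -0.04, limma adjusted p = 0.944).

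Among the Id factors, Id2 carried the widest changes. Its brightest probe, A_52_P240542, was 1.73 and 1.10 on the 2 replicates of experiment 1 and 1.22 on the overexpression array of experiment 2. It was 3.20 on the Tcf7l2null array, -0.22 on the Tcf7l2null/Ascl2 array and -1.19 on the Ascl2null array, beside 0.20 and -0.35 on the self-self arrays. In order, Tcf7l2null stood first by a wide margin, the 3 overexpression arrays followed, the one of experiment 2 between the experiment 1 pair (SD 0.44), the Tcf7l2null/Ascl2 array lay between both self-self arrays, and the Ascl2null array was last.

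The splice-junction probe A_51_P219074, printed above, also put Tcf7l2null first and Ascl2null last: it gave 1.51, 1.46 and 0.89 with overexpression, 2.49 for Tcf7l2null, -0.16 for Tcf7l2null/Ascl2 and -0.77 for Ascl2null, with 0.26 and -0.07 on the self-self arrays. Here the overexpression array of experiment 2 lay below both replicates of experiment 1, and the Tcf7l2null/Ascl2 array below both self-self arrays. The third probe, A_52_P94071, lies at mm9 chr12:25780080-25780139, outside the junction probe, and the array's annotation gives it another accession. It was dim, with values from -0.01 to 0.45, and its self-self arrays gave 0.27 and 0.07. The Tcf7l2null array (0.45) and replicate 1 of experiment 1 (0.39) lay above that range and the Tcf7l2null/Ascl2 array (-0.01) below it.

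**Figure D2:**
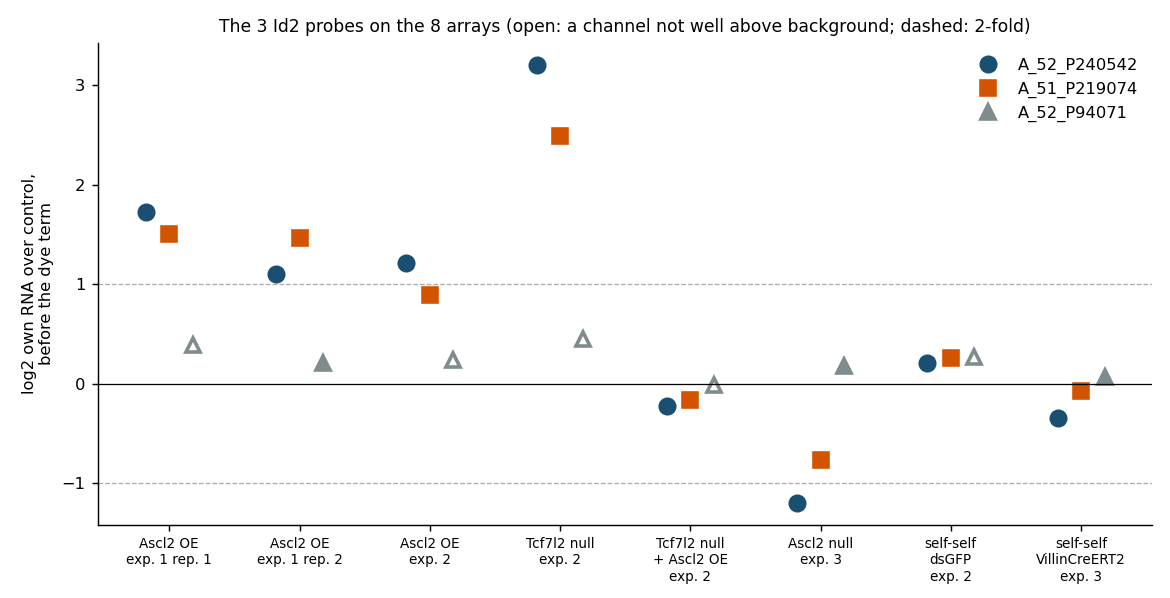
Log2 ratio of own RNA over control (y axis, before the dye term) of the 3 Id2 probes on each array (x axis); OE is overexpression, dashed lines mark 2-fold and open symbols a channel not well above background. The brightest probe and the splice-junction probe reach 3.20 and 2.49 on the Tcf7l2null array and lie at -0.22 and -0.16 when Ascl2 overexpression was added, while the third probe stays between -0.01 and 0.45.

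On the Tcf7l2null array Id2 was 9.22-fold above dsGFP RNA by its brightest probe, and 0 of the 27597 probes measured there were higher. The junction probe was exceeded by 2 probes. After the dye term the effect was 3.13 for the brightest probe and 2.52 for the junction probe, with 1 array and no test. The Tcf7l2null/Ascl2 array was lower than the Tcf7l2null array by a log2 difference of -3.43 for the brightest and -2.65 for the junction probe, both against the same control RNA. Of the 27560 probes with both values, 6 had a lower difference than the brightest Id2 probe, and 4.09% of all probes were at least 2-fold lower in this comparison. The dsGFP channels behind these 2 ratios had 8.89 and 8.44 on the log2 intensity scale, while own RNA went from 12.1 (Tcf7l2null) to 8.21 (Tcf7l2null/Ascl2), a wider gap than that of the control.

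Across the 3 overexpression arrays the shared Id2 effect was 1.32 ± 0.16 (SE, n = 3; 2.50-fold) for the brightest probe and 1.30 ± 0.15 for the junction probe, higher on 3 of 3 arrays. Neither passed, with a limma adjusted p of 0.087 for both. The limma adjusted p lay between 0.0101 and 1 over the alternatives and passed with no dye term (0.0188 and 0.0174) and with the slide as a random block (0.0101 and 0.0164), and for the junction probe also without the experiment 2 array (0.0364). With the scanner's outlier local backgrounds left in place before normexp, replicate 2 of experiment 1 gave 0.17 and 0.10 for these probes and the shared effects were 0.90 and 0.68 (limma, adjusted p = 0.444 and 0.476), and that repair was chosen after seeing the data. The authors' deposited table holds other values for Id2 in experiment 1: 0.13 and 0.96 for the brightest probe and 0.65 and -0.17 for the junction probe. The scanner's log ratios of the same spots were 1.85 and 1.24, and 1.68 and 1.77. On those arrays the authors' deposited table differed from the scanner's log ratio by over 0.02 for 4 of the 17 probes on each replicate (the 3 Id2 probes and the brightest Tcf12 probe), and for 8.57% and 8.20% of all kept probes.

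**Figure D3:**
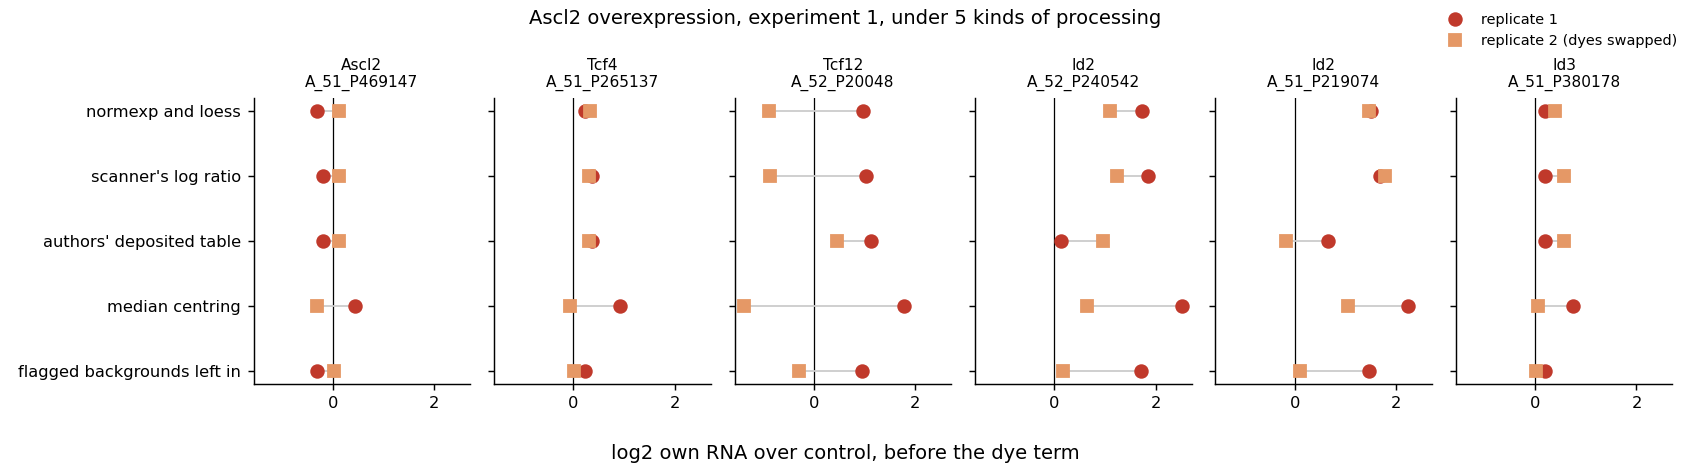
Log2 ratio of own RNA over control (x axis) in experiment 1 for 6 probes, 1 panel each, under 5 kinds of processing (rows); circles are replicate 1 and squares the dye-swapped replicate 2. Id2 is above 1 on both replicates with normexp and loess and with the scanner's log ratio, but at 0.13 and 0.96, and at 0.65 and -0.17, in the authors' deposited table; with median centring the Ascl2 pair changes sides.

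Id1 was higher in experiment 2 and in Ascl2null RNA, and near 0 in experiment 1. Its brightest probe, A_51_P385786, was 0.04 and 0.13 in experiment 1 and 0.98 on the overexpression array of experiment 2. It was 0.61 for Tcf7l2null, 0.50 for Tcf7l2null/Ascl2 and 0.96 for Ascl2null, beside 0.30 (dsGFP) and -0.35 (VillinCreERT2) on the self-self arrays. Every experiment 2 ratio lay above its self-self value, and the Ascl2null ratio lay 1.30 above that of its slide. The second probe shares 50 of its 60 bases with the first and is no separate measure. It gave 0.04, 0.14, 1.02, 0.70, 0.48 and 0.90 in the same order. The shared effect was 0.35 ± 0.21 (SE, n = 3; limma, adjusted p = 0.606), and the difference between the experiments 0.92 (limma, adjusted p = 0.565).

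Id1 also differed most between the control RNAs. The control channels had 8.71 and 8.84 in experiment 1, 9.14 to 10.0 in experiment 2 and 6.91 to 7.56 in experiment 3 on the log2 intensity scale, with no overlap. Ascl2null RNA, at 8.52, was above its own controls and below the controls of both other experiments.

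**Figure D4:**
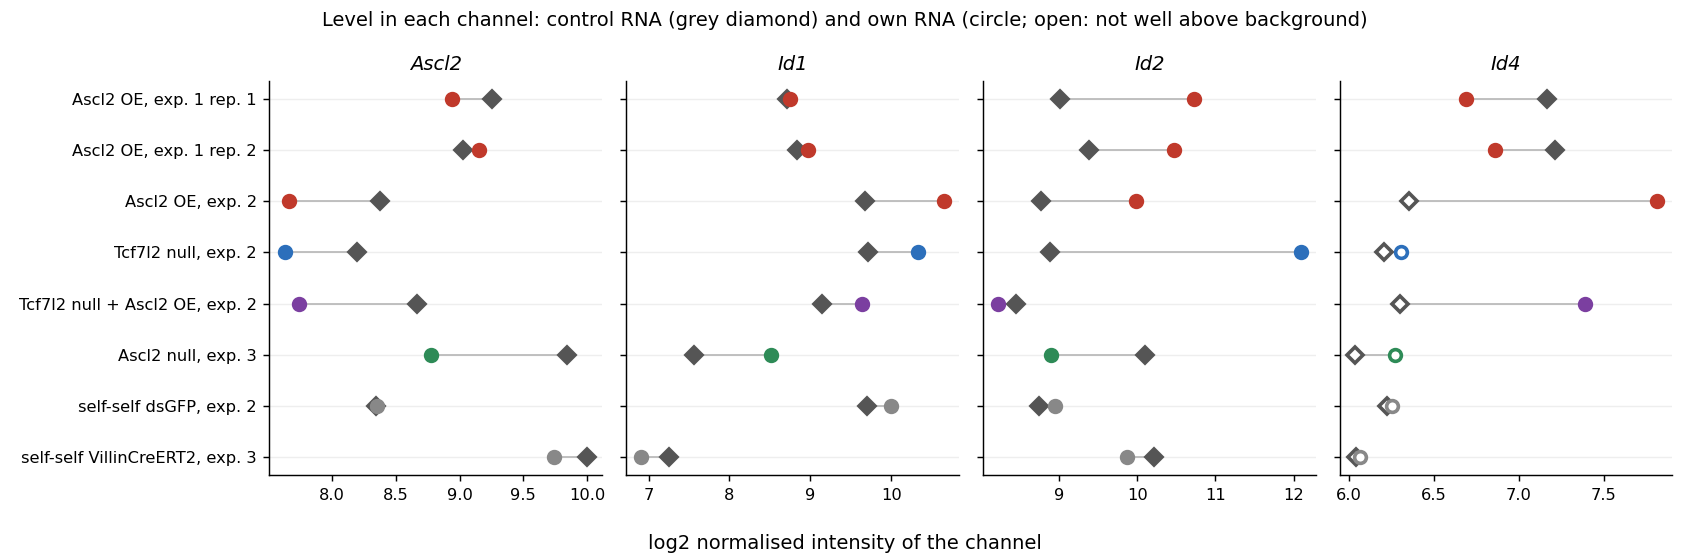
Log2 normalised intensity (x axis) of the control RNA (grey diamond) and own RNA (circle) on each array (rows) for the brightest probes of Ascl2, Id1, Id2 and Id4; open symbols were not well above background, and each panel has its own axis. Id2 control RNA stays between 8.44 and 8.95 in experiment 2, while the control level of Id1 runs from 6.91 to 10.0 over the 3 experiments.

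Id3 was above 0 on every array, and highest on the Ascl2null array. Its single probe was 0.20 and 0.38 in experiment 1, 0.45 on the overexpression array of experiment 2, 0.35 for Tcf7l2null and 0.13 for Tcf7l2null/Ascl2. The self-self arrays gave 0.13 and 0.05, and the Ascl2null array 1.08, which is 1.03 above its self-self array. The shared overexpression effect was 0.34 ± 0.10 (SE, n = 3; limma, adjusted p = 0.266). With the slide as a random block it passed (limma, adjusted p = 0.048). On that 1 array Id1 and Id3 were thus higher than in VillinCreERT2 RNA, and Id2 was lower by 2 of its 3 probes (its dim probe gave 0.17, beside 0.07 on the self-self array).

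Id4 had ratios of opposite sign in the 2 overexpression experiments. Its brighter probe, A_52_P449871, was -0.48 and -0.35 in experiment 1, where both channels were well above background. In experiment 2 no dsGFP channel was, while own RNA of the Ascl2-overexpressing and Tcf7l2null/Ascl2 organoids was. Before the dye term Id4 was 2.76-fold and 2.13-fold higher there. These folds set own RNA against the higher of the channel's lowest signal well above background and the control's own signal, here the latter. They are no minimum: after the dye term the Tcf7l2null/Ascl2 value was 1.79-fold. Neither channel was well above background on the Tcf7l2null, Ascl2null and self-self arrays, and no ratio is given for them. The second probe, A_51_P494430, gave -0.24 on replicate 1 of experiment 1 and was 1.46-fold lower on replicate 2. It was 1.74-fold and 1.21-fold higher on the same 2 arrays of experiment 2, the latter 1.06-fold after the dye term.

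In the limma fit the Id4 effect of Ascl2 overexpression was 1.90 ± 0.21 (SE) higher in experiment 2 than in experiment 1 (adjusted p = 0.0273). Its size rests on dsGFP channels that were not well above background and ran from 1.62 to 5.72 over the alternatives, so it is no measured amount. The second probe had 1.17 ± 0.25 (limma, adjusted p = 0.219). This test has 2 residual degrees of freedom and sets 1 array against technical spread, and the call was lost without either replicate of experiment 1 (limma adjusted p = 0.442 and 0.0536), without the dsGFP self-self array (0.249) and with median centring (0.92). The control level differed too: the VillinCreERT2 channels of experiment 1 had 7.17 and 7.21, and the dsGFP channels of experiment 2 had 6.20 to 6.35, not well above background. Id4 in Tcf7l2null RNA, at 6.31, was also not well above background, whereas adding Ascl2 overexpression gave 7.39.

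Over the 3 overexpression arrays, 0 of the 17 probes passed limma at an adjusted p under 0.05, as against 0.0435% of all probes (12 of 27617). At an unadjusted p under 0.05 there were 5 of 17 (2 bright and 1 dim Id2 probe, 1 Tcf4 and the Id3 probe), against 11.8% of all probes. For the difference between the experiments 1 of 17 passed, the Id4 probe, against 0.497%, and 5 had an unadjusted p under 0.05, against 7.01%. The brightest probes of Tcf4, Id1, Id2 and Id3 were above 0 on 3 of 3 overexpression arrays, as were 15.6% of all probes. With median centring this held for 2 of those 4 genes, since Tcf4 and Id1 were -0.07 and -0.29 on replicate 2.

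Counts at or past 2-fold on single arrays were small. By brightest probe, 1 of the 7 genes was 2-fold higher on each replicate of experiment 1 (Id2; 0.286% and 0.465% of all probes), 2 on the overexpression array of experiment 2 (Id2 and Id4; 0.95%), 1 on the Tcf7l2null array (Id2; 0.366%), 1 on the Tcf7l2null/Ascl2 array (Id4; 1.06%) and 1 on the Ascl2null array (Id3; 1.98%). The Ascl2null array also had 2 genes 2-fold lower, Ascl2 and Id2 (1.37%). After the dye term Ascl2 was 1.78-fold and Id2 2.41-fold lower there. No member was past 2-fold on a self-self array, where 0.0145% (dsGFP) and 0.207% (VillinCreERT2) of all probes were in either direction.

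The wider bHLH family was taken from a list of 27 genes, of which 18 were kept. None passed for shared overexpression, and the list's median effect was 0.08 beside 0.00 over all genes. For the difference between the experiments 1 gene passed, Bhlha15 (limma, adjusted p = 0.0173), beside 120 of all 19336 genes. Bhlha15 (Mist1), a factor of secretory cells, was 0.55 and 0.48 in experiment 1, -1.68 and -1.86 with Ascl2 overexpression in experiment 2 without and with Tcf7l2 loss, and -1.27 in Ascl2null RNA. Neurog3, the factor that starts the enteroendocrine programme, was 0.26 and 0.99 in experiment 1, -0.41 on the overexpression array of experiment 2 and -2.39 in Ascl2null RNA. Atoh8 had 0.81 and 1.31 in experiment 1, -0.22 on the overexpression array of experiment 2 and -0.91 in Ascl2null RNA. Of the Notch-driven repressors, Hes5 was 0.83 and 0.81 in experiment 1 and -0.71 in Ascl2null RNA, and Hes1 was 1.21 and -0.02 on the swapped pair with -0.83 on the dsGFP self-self array.

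BMP signalling, which feeds the Id genes, was represented by 33 list genes, with 25 kept. None passed for shared overexpression or for the difference between experiments, and the list's median effect was 0.00. Genes past 2-fold on an array were Bmp7, Bmp3 and Rgmb. Bmp7, a ligand, was -1.49 on the Tcf7l2null/Ascl2 array. Bmp3, an antagonistic ligand, was 1.05 in Ascl2null RNA, and -0.31, -0.47 and -0.45 with overexpression. Rgmb, a BMP co-receptor, was 0.64 and 1.02 in experiment 1 and -0.85 on the overexpression array of experiment 2. It was -0.99 on the Tcf7l2null/Ascl2 array.

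Among 19 crypt stem cell genes associated with Ascl2, 1 passed for shared overexpression, the water channel Aqp4 (1.31 ± 0.11, SE, n = 3; limma, adjusted p = 0.0419), and the list's median effect was 0.04. Of all 19336 genes, 5 passed as higher and 5 as lower, and 120 passed for the difference between the experiments. No probe of the array passed this test with the scanner's log ratio, the authors' deposited table or median centring. The array medians were 0.56 and 0.32 on the experiment 1 replicates and 0.46 for Tcf7l2null, and -0.38 on the overexpression array of experiment 2, -1.27 for Tcf7l2null/Ascl2 and -0.65 for Ascl2null. Lgr5, the R-spondin receptor, was 1.06, 0.54 and -1.83 on the overexpression arrays, in array order, and passed for the difference (limma, adjusted p = 0.00937), as did Nr2e3, with 0.36, 0.42 and -1.98 (limma, adjusted p = 0.0202). Olfm4 had -5.10 on the Tcf7l2null/Ascl2 array and -3.24 in Ascl2null RNA, beside 0.01 (dsGFP) and -0.98 (VillinCreERT2) on the self-self arrays. Ephb3, Cdca7, Slc12a2 and Sox9 had -2.55, -2.21, -2.18 and -1.80 on the Tcf7l2null/Ascl2 array. The Ascl2 probe, which may not read the construct, did not follow these genes in experiment 1, where it stayed between -0.31 and 0.12.

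Cell type markers differed between the same arrays. The median of the 6 enteroendocrine markers kept was -1.09 and -1.33 in experiment 1, 0.34 for Tcf7l2null, 3.11 and 3.64 with Ascl2 overexpression in experiment 2 without and with Tcf7l2 loss, and 4.10 in Ascl2null RNA, beside 0.08 and -0.07 on the self-self arrays. Id4 was higher on the 2 experiment 2 arrays with enteroendocrine medians above 3, but was not well above background on the Ascl2null array, where that median was highest. Id3 was 1.08 on the Ascl2null array and 0.13 on the Tcf7l2null/Ascl2 array, the latter equal to the dsGFP self-self array. On the overexpression and Tcf7l2null/Ascl2 arrays of experiment 2 the Paneth median was -1.96 and -2.15 and the tuft median 0.83 and 1.19. On each, 4 of 4 Paneth markers were at least 2-fold lower, beside 188 and 420 of all 19336 genes. The enterocyte median was -0.65 and -0.85 in experiment 1, -0.64 for Tcf7l2null and 1.16 in Ascl2null RNA, and the 2 bright Id2 probes had the opposite sign on these arrays. It was -0.49 and 0.07 on the 2 remaining experiment 2 arrays. The part of these cell types in the Id values was not tested.

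The genes whose brightest probe lay nearest to each member over the 6 arrays that are not self-self were found by the root mean square (RMS) difference of log2 ratios. For Ascl2 the 5 nearest were an unnamed transcript (ENSMUST00000116476), D10Bwg1070e, Sp110, Ttyh3 and Psip1, with RMS differences of 0.18 to 0.23, against a median of 0.74 over all genes. For Id2 no gene was close: Krt18, Apcdd1 and Aqp4 were nearest with 0.73, 0.74 and 0.78, against a median of 1.72. Krt18, an epithelial keratin, had 1.92 for Tcf7l2null and -0.28 for Tcf7l2null/Ascl2, and Aqp4 had 1.53 and -0.58. Both also passed for shared overexpression (limma, adjusted p = 0.0419 each), with effects of 0.98 and 1.31. They were chosen for nearness to Id2 on arrays that include the 3 overexpression arrays, so these calls are no separate support. Krt18 had 0.45 and 0.37 on the dsGFP and VillinCreERT2 self-self arrays. Apcdd1, a Wnt antagonist, had 1.84 and 0.37, and -1.72 in Ascl2null RNA.

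Nearest to Id1 were Vstm2l (0.09), Plgrkt and Syde1 (both 0.14), and to Id3 Sycn (0.11), Asrgl1 (0.12) and Poglut1 (0.16), all by RMS difference. Id4 was nearest to B3galt5 (0.15), Amigo2 (0.17) and Slfn2 (0.20). B3galt5 had 1.73 on the overexpression array of experiment 2 and 1.10 on the Tcf7l2null/Ascl2 array. Tcf4 was nearest to Med10 (0.07), Cdk19 (0.09) and Napepld (0.10), and Tcf12 to Rps29 (0.21), Prps1l3 (0.24) and Hint1 (0.26). Rps29 showed the same opposite signs as Tcf12 on the swapped pair, 0.72 and -0.67. These matches used ratios before the dye term. For the brightest Tcf12 probe Cy5 was above Cy3 on both arrays of that pair, whichever RNA it held (11.3 over 10.4, and 11.4 over 10.5).

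E-box motifs were counted in the 250 bases before the annotated start of each gene in RefSeq's promoter table (GRCm38.p6), which held an entry for Ascl2, Tcf12, Id2, Id3 and Id4. The Id2 window is printed because Id2 moved most, at chr12:25096093-25096342 on the minus strand, with its E-box in capitals.
Id2 promoter: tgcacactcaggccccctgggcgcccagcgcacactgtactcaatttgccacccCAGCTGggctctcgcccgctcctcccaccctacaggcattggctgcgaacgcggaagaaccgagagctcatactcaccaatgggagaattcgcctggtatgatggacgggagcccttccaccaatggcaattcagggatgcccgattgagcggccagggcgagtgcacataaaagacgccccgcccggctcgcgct
The Id2 window held 1 E-box (CANNTG, in its CAGCTG form), 196 bases before the start, and 1 match to GGCGCC, a motif bound by BMP-driven Smads, but none to CTTTGA, a core of TCF/LEF sites. The Ascl2 window held 2 E-boxes, neither of the CAGCTG form, and those of Id3 and Id4 held 0. Tcf12 had 3 windows, with 1 E-box (CAGCTG), 1 of another form and 0. The Id4 window also held 1 GGCGCC. Over all 32851 promoter windows on both strands, 66.2% held CANNTG, 13% CAGCTG, 9.59% GGCGCC and 13.8% CTTTGA, and every CAGCTG is also a CANNTG. A match describes these letters and no binding was measured.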

How the data were processed

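Members and lists were chosen with earlier results of these data known. Spots were quantified with Agilent Feature Extraction 10.5.1.1, per the submitters' processing notes. Cy3 and Cy5 intensity (median spot signal and local background) and the scanner's log10 ratio of Cy5 over Cy3 were used as deposited, per the file headers. The authors' deposited table of log2 ratios, whose normalization the sources used here do not state, served as an alternative.

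In limma 3.58.1 (R 4.3.3) intensities were corrected by normexp (offset 50) and loess, without control spots (1639 of 45018) and outlier spots. With local backgrounds as deposited, normexp failed on experiment 1 replicate 2, where flagged backgrounds reached 407956 against a median of 34 in Cy3. Flagged local backgrounds were therefore replaced by the median of the unflagged ones, a choice made after seeing the data.

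Model 1 held a dye term, 1 overexpression effect over 3 arrays and the 3 other conditions (3 residual degrees of freedom), and model 2 separate overexpression effects (2). P-values were adjusted by Benjamini-Hochberg over all probes, with calls under 0.05, and the fit was tested on simulated data. The simulated errors were independent between arrays and the simulated effects larger than the shared effects called here. That simulation therefore cannot show how far the p-values hold for arrays that share a slide. Conditions with 1 array have no test. The brightest probe stands for a gene. From the lists, genes past 2-fold on an array and under it on both self-self arrays were named, at most 8 per list by size, and the genes nearest each member (5 for Ascl2, 3 for the others).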

Additional observations from a re-analysis of the deposited data

Results flagged for a closer look

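The fitted Ascl2 overexpression effect on Id4 differed between the experiments, by 1.90 on the log2 scale (limma, adjusted p = 0.0273). The experiment 2 side is 1 array whose dsGFP control was not well above background, so the size is not a measured amount, and the call was lost under 5 alternatives (limma adjusted p up to 0.92).

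For 4 genes, adding Ascl2 overexpression to Tcf7l2null organoids went the opposite way from all 3 overexpression arrays. The difference was -3.43 for Id2, -0.53 for Tcf4, -0.22 for Id3 and -0.11 for Id1. Of 27560 probes, 6 had a lower difference than Id2, 3072 than Tcf4, 7076 than Id3 and 9682 than Id1. Of these 4 genes, only Id2 was thus close to the lowest difference of all probes. For Id1 the self-self arrays alone differed by 0.64. The share of all probes with this pattern was not counted. Each is a difference of 2 arrays that share the dsGFP control, and whether it departs from the overexpression effect was not tested.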

How the results depend on the processing

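Few arrays, 1 per condition outside experiment 1, limit all values. Each ratio sets own RNA against the control RNA of the same array. Conditions could not be paired across arrays, since replicate numbers exist only within the overexpression group of experiment 1. The 12 probes called for shared overexpression (7 higher, 5 lower) became 0 with the scanner's log ratio, the authors' deposited values, median centring, a dye term per slide, flagged local backgrounds left in, or without the experiment 2 or the experiment 3 self-self array. They became 19 with no filter, 174 with no dye term (72 higher, 102 lower) and 1437 with the slide as a random block (580 higher, 857 lower; correlation 0.619), and ranged from 0 to 96 with an overexpression array left out. The unadjusted count behind these zeros lay between 831 and 5638. The 137 probes of the difference between experiments became 67 with the scanner's log ratio, 0 with median centring (637 unadjusted), 314 with no dye term, 9 and 715 without the experiment 2 and experiment 3 self-self arrays, and 68 with flagged backgrounds left in. With 1 replicate of experiment 1 left out they ranged from 4 to 91. A dye term per slide left no residual degrees of freedom for this difference, and it needs the experiment 2 array.

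After the dye term, 248 probes were past 2-fold for Tcf7l2null (104 higher, 144 lower), against 2084 with the scanner's log ratio, 1373 with the authors' deposited values, 527 with a dye term per slide and 146 with flagged backgrounds left in. Median centring gave 171 higher and 97 lower. For Tcf7l2null with Ascl2 the 598 (203 higher, 395 lower) became 2591 (1329 higher, 1262 lower), 1845 (884 higher, 961 lower) and 355 under the first 3 of these. For Ascl2null the 835 (513 higher, 322 lower) became 2973 (1256 higher, 1717 lower) with the scanner's log ratio, 2753 (1170 higher, 1583 lower) with the authors' deposited values and 1940 (256 higher, 1684 lower) with median centring.

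Of 1106 alternative values for the members, 1009 kept their side of the threshold or moved by less than the replicate spread, 82 moved by more, 9 gained a call and 5 lost one. The sign differed from the main value in 122 of them, over 42 of 85 results and none with a passed test. Among these were the Ascl2null value of the brightest Tcf12 probe, 0.0011 with a dye term per slide, its shared effect, up to 0.92, and the Id2 difference between experiments, from -0.62 to 1.10 (brightest probe). The Id4 difference ranged from 1.62 to 5.72 (limma adjusted p 0.000155 to 0.92). The 5 calls lost were all of Id4, the fifth with flagged backgrounds left in (1.62, limma adjusted p = 0.0839). The shared Id2 effect ranged from 0.86 to 1.54 for the brightest probe and from 0.47 to 1.60 for the junction probe, and that of Id3 from 0.16 to 0.44. The causes were not tested.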
